A study of Homo sapiens with 4 samples.

Results

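The regions described here are stretches of the genome that lay under an H3K9me2 peak in every library of a series on the chromatin of K562 cells. They were chosen by the positions of the peaks: the covered bases of the 4 peak lists were intersected on chromosomes 1 to 22, and intersected intervals of at least 1000 bp were kept. This gave 12631 regions among 40686 intersected intervals of any length. Their presence in all libraries is what selected them, so their number, length and peak strength are given as descriptions without a test.

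K562 is an established human myeloid leukemia line. H3K9me2 was profiled with CUT&RUN. An antibody against the mark tethers a nuclease to chromatin in permeabilised cells, and the DNA that it cuts loose is sequenced. The 2 control libraries (replicates 1 and 2) came from cells with a CRISPR guide against HPRT, and the 2 knockout libraries (replicates 1 and 2) from cells with a guide against CUX1, which the labels call a knock-out although the peak names of those libraries read "cux1kd". Neither clonality nor the loss of CUX1 protein is given in the sources used here, and a peak list cannot check it. The labels do not say that replicates came from separate cultures, so spread between them may be technical.

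H3K9me2 is placed by the methyltransferases G9a and GLP and is removed by demethylases of the KDM3 and KDM4 families. It is bound by heterochromatin protein 1 and by other readers, and it is known for wide domains in silent chromatin, many of them at the nuclear lamina, rather than for sharp summits. CUX1 is a DNA-binding homeobox protein, and its gene is often lost in myeloid neoplasms together with the long arm of chromosome 7. A domain that is broad and weakly enriched tends to be broken by a peak caller into many separate pieces, so the overlap of such pieces between libraries says where the caller placed them each time.

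Each deposited list held 250000 peaks, of which 244646 to 246639 lay on chromosomes 1 to 22. Peaks on those chromosomes covered 682 Mb in control replicate 1, 670 Mb in control replicate 2, only 417 Mb in knockout replicate 1, and 580 Mb in the other knockout library. Knockout replicate 1 stood apart with the least covered length and the narrowest peaks. The peak names of control replicate 1 alone carry a tag that begins with "sub", which the labels do not explain. Whether its reads were handled otherwise is not given in these sources, and any part of that in its covered length and peak widths was not tested. The lists carry no read counts, so the depth behind a peak, and the precision it gives, are unknown. All positions are hg19.

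At least 1 library had a peak over 1468 Mb of the autosomes. Of those bases 55.9% were under a peak in 1 library only, 30.5% in 2 libraries, 11.3% in 3 libraries and 2.29% in all 4. The last share amounted to 33.7 Mb, and intervals of at least 1000 bp held 20.7 Mb of it, or 61.4%. Most of the genome that any library marked was thus marked in 1 or 2 of the 4 lists.

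The regions were short. Their median length was 1472 bp, the quartiles were 1201 and 1909 bp, and the longest spanned 5711 bp. Only 2733 of the 12631 reached 2000 bp, 427 reached 3000 bp and 4 reached 5000 bp. The limit of 1000 bp divided a continuous range of lengths, with 1940 intervals up to 100 bp shorter and 1672 intervals at the limit or less than 100 bp above it. At the limit itself, 22 intervals measured exactly 1000 bp and 13 were 1 bp shorter. The first of the former in genome order lay at chr1:51748333-51749332, chr1:59243000-59243999 and chr2:59482256-59483255, and the first of the latter at chr2:62926322-62927320, chr2:120123934-120124932 and chr2:166281343-166282341. The peaks around the 3 intervals inside the limit were 1816 to 4985 bp wide, and those around the 3 intervals outside it were 1004 to 4292 bp wide.

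The longest region lay on chromosome 2 from 180257337 to 180263047. The peaks that held it measured 7163 and 7438 bp in controls, against 6209 and 6986 bp in knockouts. The second, of 5429 bp, lay on chromosome 2 from 167182373 to 167187801, within peaks of 7611 and 8755 bp in controls, against 6638 and 6606 bp in knockouts. At both places the 2 control peaks were wider than the 2 knockout peaks. That order was found at 24.3% of all regions and at 26.0% of all intersected intervals. The third, of 5169 bp, lay on chromosome 6 from 27978762 to 27983930, under peaks of 7197, 7669, 5420 and 8456 bp (controls, then knockouts), so there the groups overlapped. The next were 5002 bp on chromosome 11 from 32548831 to 32553832 and 4842 bp on chromosome 18 from 20061411 to 20066252. On chromosome 11 the peaks measured 8858, 6953, 7690 and 5002 bp in the same order, and the region was the whole peak of knockout replicate 2. On chromosome 18 they measured 8790, 6877, 7062 and 5506 bp, so the groups overlapped at both of these places. These long regions were not strong by the caller's measure: over the 5 of them, the authors' −log10 p ranged from 1.30 to 1.74 and the fold over local background from 1.55 to 1.90.

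The number of regions was set against the number left after the lists were moved out of register. Each chromosome was closed into a circle from its first to its last peak, without stretches of at least 2 Mb that no list covered, and the lists were turned against each other by 40 sets of fixed offsets. After the shifts the lists shared 2394 regions on average, with a range from 2097 to 2736. The observed number was 5.28 times that mean and lay above every set. The shared bases, 33.7 Mb, were 4.22 times the shifted mean of 7.99 Mb. Shifted regions were also shorter, with median lengths of 1331 to 1365 bp against 1472 bp observed.

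The ratio was smaller where large-scale density was kept. Offsets of only 1 to 5 Mb, which leave each list in nearly the same neighbourhood, gave 3113 regions on average (range 2946 to 3390), and the observed number was 4.06 times as high. The same held for the product of the 4 coverages. Bases shared by all lists were 5.76 times the product over the whole genome, 4.21 times the product taken per chromosome, 2.96 times that taken per 1-Mb window and 2.71 times that taken per 100-kb window. The ratio fell as the windows shrank and was still above 2 in the smallest.

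The pairs of libraries contributed alike. Within 1-Mb windows, the bases shared by a pair were 1.24 times the product of its coverages for the 2 controls and 1.29 times for the 2 knockouts, and 1.25 to 1.30 times for the 4 mixed pairs. Intervals of at least 1000 bp common to both controls numbered 97491, and 12.9% of them held a region. Those common to both knockouts numbered 53781, and 23.5% of them held a region. Knockout replicate 1, with the least covered length, limited the regions most: 3 lists shared 42473 regions without it. They shared 24830 without control replicate 1, 24404 without control replicate 2 and 27130 without knockout replicate 2.

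**Figure D1:**
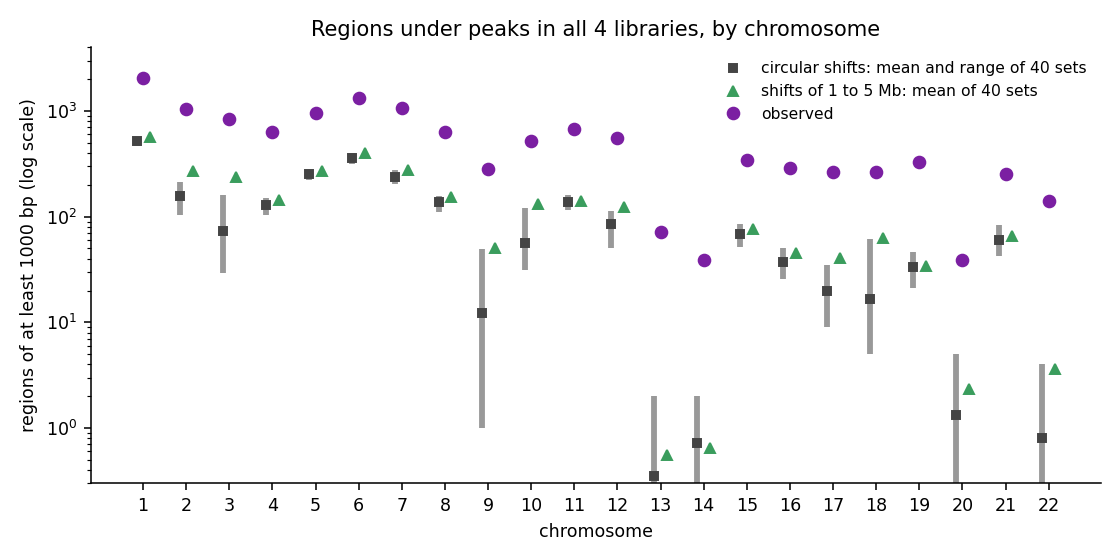
Number of regions of at least 1000 bp under peaks in all 4 libraries on each autosome (circles, log scale), with the mean and range of 40 sets of circular shifts (squares and bars) and the mean of 40 sets of shifts of 1 to 5 Mb (triangles). Bars that reach the bottom of the axis extend to 0. Chromosomes 13, 14, 20 and 22 had 71, 39, 39 and 141 regions where the circular shifts left at most 5.

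Regions were found on every autosome, in unequal numbers. Chromosome 1 held 2039, or 16.1% of all, followed by chromosome 6 with 1329, chromosome 7 with 1077 and chromosome 2 with 1039. Per Mb of spanned sequence, chromosomes 1, 6, 21 and 7 were the densest, with 9.09, 7.93, 7.22 and 6.96 regions, and chromosomes 14, 20 and 13 the sparsest, with 0.448, 0.656 and 0.741. The density of regions followed the density of peaks, to which the rule ties it, since regions are part of the covered bases. Across the 22 chromosomes the Spearman correlation of regions per Mb with mean coverage was 0.86. It describes points that share the same 4 libraries. Shifted counts depend on the same coverages, so their ratio to the observed counts is tied to coverage as well. The ratio of observed to shifted counts ran the other way (Spearman correlation -0.98), from 3.71 on chromosome 6 and 3.81 on chromosome 5 to 176 on chromosome 22 and 203 on chromosome 13. On the last 2 chromosomes the shifts left fewer than 1 region on average, 0.80 and 0.35, so the ratios there are unsteady and the counts themselves are the better guide.

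Arms of the same chromosome differed as well. On chromosome 6 the short arm held 10.9 regions per Mb and the long arm 6.35. On chromosome 18 the short arm held 7.81 per Mb and the long arm 2.51, and on chromosome 7 the long arm, which carries CUX1, held 8.42 and the short arm 4.50. Each of these denser arms was also covered more than the other arm in every library. On chromosome 7, peaks covered 36.0% and 35.6% of the long arm in controls and 18.4% and 26.8% in knockouts. For its short arm the values were 27.7%, 28.3%, 17.2% and 24.4% in the same order. The short arms of chromosomes 17, 20 and 9 were nearly empty, with 6, 8 and 21 regions in all. The long arm of chromosome 20 held 31 regions. Its coverage was 23.9% and 24.1% in controls, against 6.53% and 7.18% in knockouts, so the low coverage of the knockout lists bounded what all 4 could share there.

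**Figure D2:**
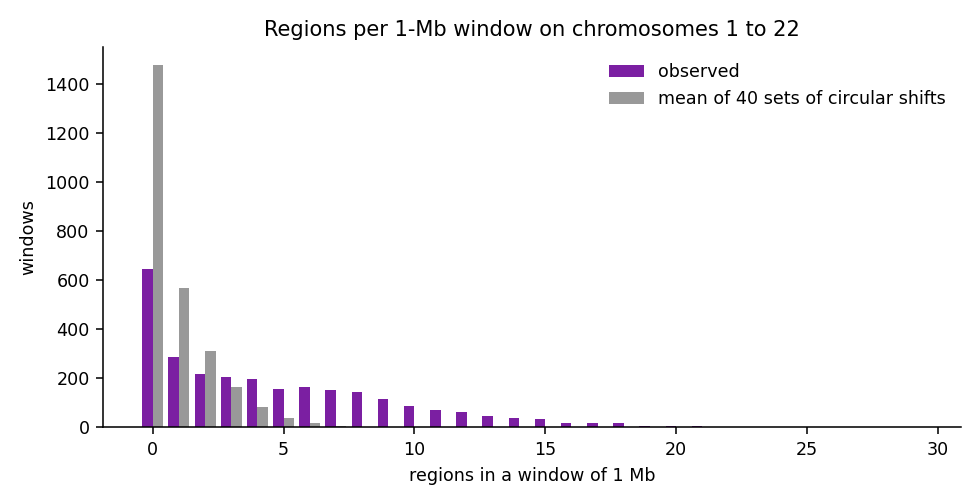
Number of 1-Mb windows of the autosomes (vertical axis) by the number of regions they held (horizontal axis), observed and as the mean of 40 sets of circular shifts. The fullest window held 29 regions, and 7 to 12 in each set of shifts. The shifts left 0.895 regions per window on average against 4.67 observed, so the distributions differ in their totals.

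In windows of 1 Mb the regions were unevenly spread. Of the 2704 windows with any peak, 23.9% held no region, the median window held 3 and the fullest 29. The mean was 4.67 regions per window. Circular shifts left 0.895 per window, with 55.3% of the windows empty and 7 to 12 regions in the fullest window of a set, and fewer regions in all give more empty and fewer full windows. Windows with 10 or more regions numbered 417 and held 43.4% of all regions, and 50% of the regions lay in 18.9% of the windows. Across windows, the Spearman correlation of the number of regions with mean coverage was 0.86 (n = 2704). Again the rule ties these values, and they describe points read from the same lists.

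The 5 fullest windows were on chromosomes 22, 6 and 21. The window from 22000001 to 23000000 on chromosome 22 held 29 regions, which together spanned 52.7 kb. Peaks covered 47.8% and 42.9% of it in controls, against 24.7% and 40.8% in knockouts. The window from 19000001 to 20000000 on the same chromosome held 26 regions. On chromosome 6, the windows starting at 28000001 and 15000001 held 25 and 24, and on chromosome 21 the window starting at 35000001 held 24. Coverage of these windows by knockout replicate 1 was 18.3% to 25.4%, the lowest of the 4 libraries in each.

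**Figure D3:**
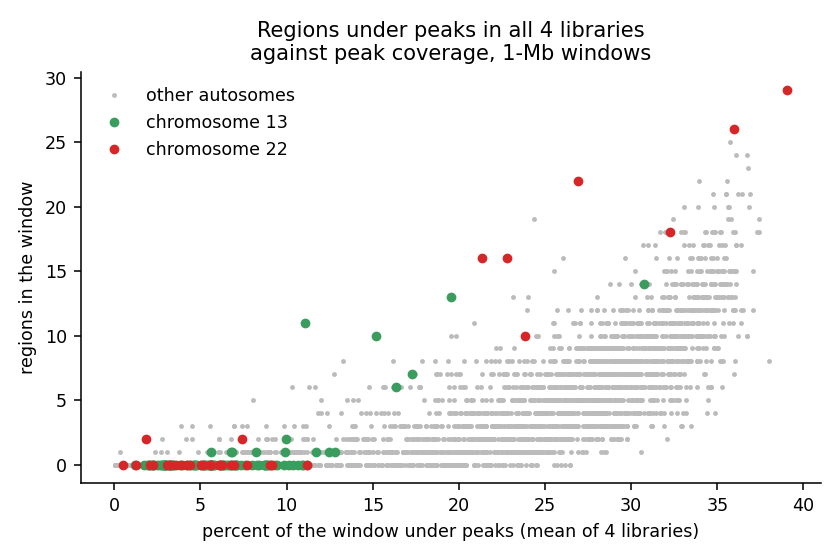
Regions in each 1-Mb window (vertical axis) against the percent of the window under peaks, as the mean of the 4 libraries (horizontal axis), for the other autosomes (grey), chromosome 13 (green) and chromosome 22 (red). Most windows of chromosomes 13 and 22 sit at the lower left with few or no regions, while the fullest window of chromosome 22 reaches 29 and stands above all others.

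On chromosomes 13 and 22, which had few peaks, most regions lay in blocks. On chromosome 22, windows with 5 or more regions formed a single block from 17000001 to 24000000 that held 137 of the 141 regions. Peaks covered 34.5% and 32.2% of this block in controls, against 17.2% and 31.6% in knockouts. The rest of the chromosome was covered to 4.32% to 5.65% in the 4 libraries. On chromosome 13, windows with 5 or more regions fell into 3 blocks, from 81000001 to 82000000, from 90000001 to 94000000 and from 108000001 to 109000000, with 10, 40 and 11 regions. These 6 windows held 61 of the 71 regions of chromosome 13, and the other 91 windows held 10. On chromosome 14 a single window, from 23000001 to 24000000, held 7 of 39 regions, and on chromosome 20 no window held 5. The 5-region limit and these 4 chromosomes were taken after their values were seen.

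The blocks were picked by their number of regions, which are part of the shared bases. A high ratio of shared bases to the product of coverages in them thus follows in part from that choice, and is given as a description. Within the block on chromosome 22 the shared bases were 5.88 times the product of the coverages taken per window. For the 3 blocks on chromosome 13 the ratio was 42.5, 9.01 and 139. Over all autosomal windows of like mean coverage the ratio was 2.89 (25% to under 30%, as in the block on chromosome 22). For the classes of the blocks on chromosome 13, in the same order, it was 6.30 (15% to under 20%), 3.76 (20% to under 25%) and 15.0 (10% to under 15%). Outside the blocks, where few bases were covered, the ratio was 43.4 on chromosome 22 and 12.5 on chromosome 13, so the blocks did not exceed the rest of their own chromosomes throughout. On chromosome 9 the 3 fullest windows started at 133000001, 37000001 and 134000001 and held 19, 13 and 13 regions.

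The peaks over the blocks of chromosomes 13 and 22 also had other values than those over the remaining regions. In the block on chromosome 22 the authors' median fold was 1.69 in control replicate 1, 1.62 in control replicate 2, 1.77 in knockout replicate 1 and 1.66 in knockout replicate 2. Over the 12426 regions outside any block it was 1.79, 1.73, 1.92 and 1.78 in the same order, higher in each library. The median −log10 p lay the other way, at 1.69, 1.75, 1.67 and 1.81 in the block and 1.5, 1.53, 1.66 and 1.58 outside. The 40 regions of the largest block on chromosome 13 had folds of 1.64, 1.51, 1.73 and 1.53 and a −log10 p of 1.59, 1.67, 1.68 and 1.71. The fold was again lower and the −log10 p higher in each library. In knockout replicate 1, however, the −log10 p of both blocks was nearly equal to that outside (1.67 and 1.68 against 1.66). The single full window of chromosome 14, with 7 regions, did not show this, since its fold was 1.81, 1.75, 1.86 and 1.96. As background, a small fold reaches a given p more easily where more reads lie on both sides of the ratio, and K562 is known for extra copies of the BCR-ABL1 fusion, which joins material from the long arms of chromosomes 22 and 9. Copy number was not measured here, and its part in these blocks was not tested.

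Close neighbours were uncommon, though more frequent than after shifts, which leave fewer regions. Another region lay within 10 kb for 1799 of the 12631 regions, or 14.2%, against 2.24% to 4.06% after circular shifts. Such a share rises with the number of regions. It was 4.32 times its shifted mean, and the number of regions was 5.28 times its own, so the excess of neighbours did not go beyond that in number. The 95% Wilson interval of the share was 13.6% to 14.9%. It takes regions as independent, although neighbours come in runs, so it is too narrow even for counting error. The median gap between neighbours was 82.0 kb and the smallest 1069 bp. Joined at 10 kb, the regions formed 11681 runs, of which 10832 held 1 region, 763 held 2, 75 held 3 and 11 held more. Most regions thus stood alone at 10 kb, but not at wider limits: 56.1% had a neighbour within 50 kb and 77.3% within 100 kb. Without 1 library, which leaves more regions, 23.7% to 37.8% had a neighbour within 10 kb.

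The longest run held 7 regions over 48254 bp on chromosome 13, from 108535036 to 108583289, in the most distal of the blocks on that chromosome. Its regions measured 1005 to 2745 bp, under peaks of 1044 to 7994 bp. The last 2 of them shared 1 peak in both controls (7496 and 5161 bp) and in knockout replicate 1 (7994 bp), and were divided only in knockout replicate 2, where the peaks measured 1044 and 1573 bp. The next run, of 5 regions over 37203 bp on chromosome 2 from 170103043 to 170140245, had more sequence in common, 13123 bp against 11455 bp.

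**Figure D4:**
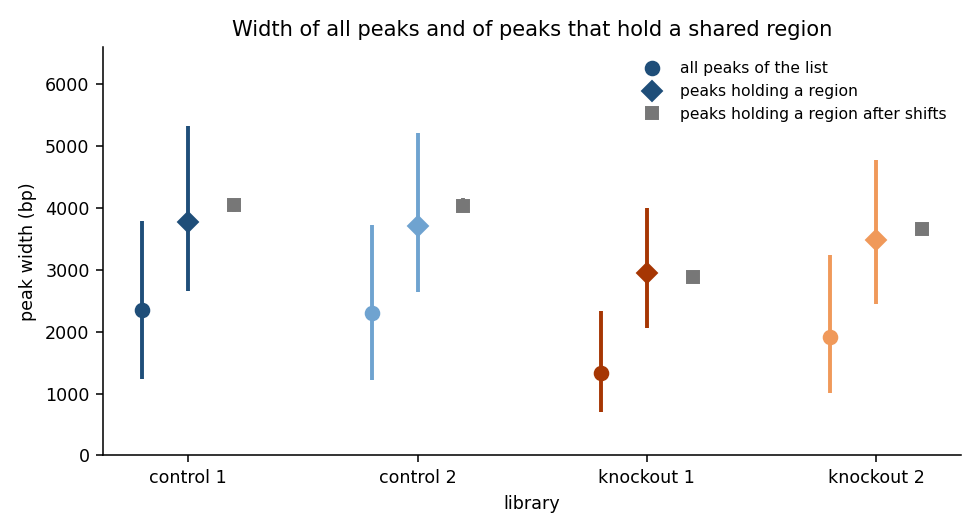
Width in bp of all autosomal peaks of each list (circles), of the peaks that hold a region (diamonds) and of the peaks that hold a region after circular shifts (grey squares). Symbols are medians, coloured bars are quartiles, and grey bars are the range of the median over 40 sets of shifts. Peaks holding a region were wider than the list in every library. Their median lay below the shifted range in both controls and in knockout replicate 2, and within it in knockout replicate 1.

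A region lies inside exactly 1 peak of each library, called its parent peak below. Their number was 12544 in control replicate 1, 12543 in control replicate 2, 12588 in knockout replicate 1 and 12566 in knockout replicate 2, which was 5.09% to 5.15% of each list. Between 43 and 88 parent peaks of a library held 2 regions, and none held more. Parent peaks had a median width of 3771 and 3708 bp in controls, against 2946 and 3476 bp in knockouts. All autosomal peaks of the same lists had medians of 2351, 2300, 1336 and 1915 bp, lower in each library. The rule favours wide peaks, since a peak under 1000 bp cannot hold a region. After circular shifts the parent peaks had median widths of 4055, 4035, 2880 and 3660 bp in the same order, so in 3 of the libraries the observed parents were narrower than the shifted ones, and in knockout replicate 1 they were within the shifted range of 2784 to 2972 bp.

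**Figure D5:**
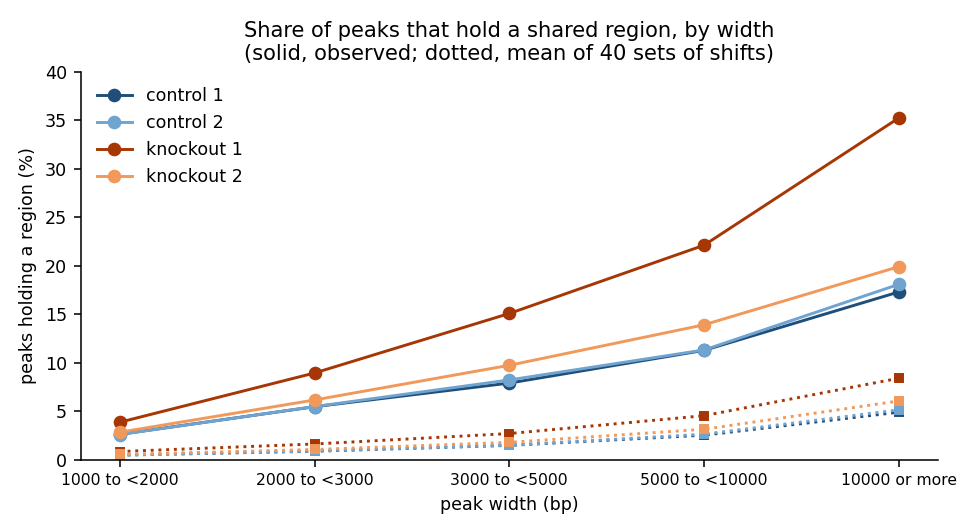
Percent of the peaks of each width class that hold a region, for the 4 libraries, observed (solid lines) and as the mean of 40 sets of circular shifts (dotted lines). The share rises with width in every library, from 2.58% to 3.85% of peaks of 1000 to under 2000 bp to 17.3% to 35.2% of those of 10000 bp or more.

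The share of peaks that held a region rose with width in all 4 lists. In control replicate 1 it was 2.60% for peaks of 1000 to under 2000 bp, 7.88% for those of 3000 to under 5000 bp and 17.3% for the 1892 peaks of 10000 bp or more. In knockout replicate 1 the same classes gave 3.85%, 15.1% and 35.2%, the last from only 88 peaks. The observed share exceeded the shifted one in each class, by 4.67 to 6.39 times below 5000 bp and by 3.30 to 4.2 times at 10000 bp or more. Even among the widest peaks of the controls, the share that held a region was no more than 18.1%.

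The 4 parents of a region were of unlike width. The widest was 2.71 times as wide as the narrowest at the median region. Across the regions, the Spearman correlation of parent width between libraries was 0.071 for the controls, 0.009 for the knockouts and -0.016 to 0.073 for the 4 mixed pairs (n = 12631 regions, which come from the same 4 lists). The centres of the parents lay 774 to 932 bp apart at the median, over the 6 pairs of libraries. Widths at the same region were thus nearly unrelated between libraries, the replicates of a group included.

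Knockout replicate 1 set the edges of the regions most often. The first base of a region was the first base of the parent peak in that library for 31.8% of regions, against 22.1% to 24.1% in the other 3. Its parent was the narrowest of the 4 at 37.6% of regions, and the widest at 14.3%. At the median region, the region made up 42.3% and 43.1% of the parent in the controls and 56.6% and 46.8% in knockout replicates 1 and 2.

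The series asks whether H3K9me2 differed between control cells and cells with the CUX1 guide, and for these regions the question can be put to the width of the parent peaks, since presence is fixed. The median width was 3740 ± 44.5 bp in control and 3211 ± 375 bp in knockout libraries (SD, n = 2 each), a difference of -14.1%. Both knockout values lay below both control values, with a two-sided exact permutation p of 0.33 (n = 2 each), which is as low as this design allows. In bp the difference was -528.5 with all libraries and -263.5 without knockout replicate 1. Over all autosomal peaks of the lists, the difference was -30.1%. As a multiple of the median width of its own list, the parent width was 1.60 and 1.61 in controls, against 2.21 and 1.82 in knockouts, which turns the direction (exact permutation p = 0.33, n = 2 each). Widths in a list move with where that list ends and with the caller's smallest width, 362 and 369 bp in controls, against 263 and 339 bp in knockouts, and their part in the difference was not tested.

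Region by region, both knockout parents were narrower than both control parents at 3072 of the 12631 regions, or 24.3%. Among all 40686 intersected intervals of any length the share was 26.0%. Both were wider at 1264 regions, or 10.0%, against 9.27% of all intervals. The regions were thus close to the background in either direction. With limma on log2 width, 0 of the 12631 regions passed a Benjamini-Hochberg adjusted p of 0.05 (0% called), the smallest adjusted p was 0.81, and 746 had an unadjusted p under 0.05, of which 638 were narrower in the knockouts. Fitted over all 40686 intervals, limma also called 0, with a smallest adjusted p of 0.85 and 2326 intervals (5.72%) at an unadjusted p under 0.05. Only 154 of these were among the 12631 regions, so the number of unadjusted calls depends on which intervals enter the fit. Relative to the median log2 width of each list, limma again called 0, with 832 at an unadjusted p under 0.05 and only 127 of those narrower.

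By −log10 p, parent peaks were slightly stronger than their list in 3 libraries and not in knockout replicate 1. By median −log10 q they lay above their list in every library, knockout replicate 1 included (0.0584 against 0.0453). The authors' median −log10 p of parent peaks was 1.51 and 1.54 in controls, against 1.66 and 1.59 in knockouts. For all autosomal peaks of the same lists it was 1.46, 1.47, 1.67 and 1.54. Ranked within its list, the median parent stood at percentile 59.0 and 61.3 in controls, against 47.6 and 59.4 in knockouts. Peaks of 2000 to under 5000 bp were ranked by −log10 p and divided into 4 classes of equal size. From the weakest class to the strongest, the share of peaks that held a region went from 4.2% to 10.2% in control replicate 1 and from 4.44% to 10.8% in control replicate 2. In knockout replicates 1 and 2 it went from 10.2% to 13.6% and from 5.66% to 11.8%. The share was thus higher among the stronger peaks of that width range in all 4 lists. Over all widths it went the other way in knockout replicate 1, from 5.40% in the weakest class, with a median width of 1530 bp, to 4.57% in the strongest, with a median width of 1079 bp.

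Few regions were strong in every library. At the median region, the lowest −log10 p among its 4 parents was 1.40. It reached 2 at 63 regions and 3 at 5, limits chosen after the values were seen. After circular shifts, which left 2394 regions on average against the 12631 observed, 0 regions reached 2 in any of the 40 sets. The 63 regions were shorter than the others, with a median length of 1280 against 1473 bp, and their parents were narrower, with medians of 2323 and 2425 bp in controls, against 2115 and 2442 bp in knockouts. Chromosome 19 held 11 of the 63, more than any other autosome, although it held only 2.60% of all regions. As a share of its own regions this was 3.35%, below the 5.13% of chromosome 20 (2 of 39 regions). Chromosomes 17 and 22 followed with 1.52% and 1.42%. Chromosome 1 held 9, and chromosomes 3, 13 and 14 held 0.

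The region with the highest of these lowest values lay on chromosome 19 from 3035355 to 3036621. Its parents had a −log10 p of 4.72 and 5.61 in controls, against 4.58 and 4.33 in knockouts, and a fold of 2.92, 2.78, 3.06 and 2.54. It was the only region of the 12631 at which every parent reached a q of 0.05. The next, on chromosome 17 from 7232298 to 7233604, had a −log10 p of 3.98 in control replicate 1, the weakest there, and of 6.5 to 10.2 in the other libraries. On chromosome 19 the regions from 34882337 to 34883485 and from 11484770 to 11485879 followed, with lowest values of 3.70 and 3.18.

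The remaining one of the 5 lay on the long arm of chromosome 20, from 36322033 to 36323068, among the 31 regions of that arm. Its −log10 p was 7.08 and 7.95 in controls, against 3.48 and 3.42 in knockouts, and its fold was 3.62 and 3.67 against 2.98 and 2.61. Both controls lay above both knockouts, while the widths, 1294 and 1040 bp against 1587 and 1422 bp, lay the other way. This is 1 region picked for its strength, and the share of all regions with that order is not given here. Peaks covered 23.9% and 24.1% of the whole arm in controls, against 6.53% and 7.18% in knockouts. A difference particular to this region was not tested. These 5 regions measured 1036 to 1307 bp, each less than the median region.

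Of the peaks that reached a q of 0.05 in their own list, 6 of 14 and 70 of 308 in the controls and 3 of 6 and 96 of 453 in the knockouts held a region. That is 42.9%, 22.7%, 50.0% and 21.2%, against 5.09% to 5.15% of all autosomal peaks. Most regions therefore rested on parents that did not reach that limit in any list. Gene names and sequence are not given for the regions, because the gene and promoter tables used here are on another genome build.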

How the data were processed

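The submitters' processing notes name BWA 0.7.17 and the hg19 build, with MACS2 2.1.0, SAMtools 1.16.1 and deepTools 3.5.1, with settings not given in the sources used here. Each library has 1 deposited list of broad peaks. A list gives every peak's fold (a ratio that the authors took over local background) and its p and q, which the authors deposited on a −log10 scale. These values served to describe, rank or filter peaks. Values of different lists were also set side by side, as in the lowest −log10 p of a region and the common limits on p and q. They were not scaled between lists, whose median −log10 p ran from 1.46 to 1.67. Covered bases were intersected with Python 3.11.15 and NumPy 2.4.6. Shifts used 40 sets of fixed offsets, with no p-value. Library medians were compared between groups with an exact permutation test on both sides, and log2 parent widths by limma 3.58.1 (R 4.3.3). Interval steps were tested on small simulated lists. The fit was tested on simulated widths with planted changes far larger than the median difference seen. That test does not show whether smaller changes could be detected. Named regions were the 5 longest, the 5 with the highest lowest −log10 p, the 5 fullest windows, the longest run and the 3 on each side of the length limit. Sample titles gave the groups and the replicate numbers. Alternatives changed the minimum length, peak limits, gap filling, chromosomes, libraries, shifts and width scale. The regions and rules were chosen with earlier results of these data known. Peaks on X, Y and the mitochondrial genome were left out.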

Additional observations from a re-analysis of the deposited data

Results flagged for a closer look

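The rule leaves out the chromosomes beyond 22, and sequence under peaks of all 4 libraries was present there too. On chromosome X, 15 regions of at least 1000 bp lay under a peak in every library, spanning 21568 bp in all, the longest 3429 bp. Peaks covered 11.3 and 8.79 Mb of X in controls, against 6.18 and 4.51 Mb in knockouts. On the mitochondrial genome, 2 such regions spanned 10549 bp, the longer 6754 bp. The regions on X and on the mitochondrial genome are outside the comparisons above, and none of them was tested. Whether the peaks there, the mitochondrial ones above all, reflect the mark or background cutting was not tested either.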

How the results depend on the processing

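The number of regions, 12631, depended on the limits. It was 24839 at a minimum length of 500 bp and 2733 at 2000 bp, 3187 with 1 limit of −log10 p for all lists (1.49), 2231 with 1 limit of −log10 q (0.0335) and 5670 at equal covered length. Without 1 library it ranged from 24404 (control replicate 2) to 42473 (knockout replicate 1), which follows from intersecting fewer lists. Filling gaps up to 2000 bp (17816), adding X (12646) or leaving out chromosome 20 (12592) kept it within 1.5 times. Shared bases, 33.7 Mb, were 8.14, 5.50 and 14.6 Mb with the limits on p and q and at equal covered length, and 62.7 to 105 Mb without 1 library. The observed number stayed above the shifted mean in every setting run: 5.28 times in the main setting, 4.00 and 9.30 times at 500 and 2000 bp, 11.9 and 15.2 times with the limits on p and q, 8.36 times at equal covered length, 6.16 times with peak-free stretches kept and 4.06 times with shifts of 1 to 5 Mb. For shared bases the ratio was 4.22, and 4.93 and 3.33 with the latter 2 kinds of shift, 2.96 for products in 1-Mb windows and 2.71 in 100-kb windows, the last chosen after the data were seen. The share with a neighbour within 10 kb, 14.2%, was 25.2% and 5.31% at 500 and 2000 bp, 56.1% and 77.3% for 50 and 100 kb, and 23.7% to 37.8% without 1 library. The difference in parent width, -528.5 bp, turned to 0.402 in units of the list median and to 0.495 in units of the smallest width (exact permutation p = 0.667), and lay between -793.5 and -263.5 bp without 1 library. The replicate block left it at -528.5 bp (exact permutation p = 0.50, the smallest that 2 pairs give). Same-numbered libraries did not deviate together over the regions (correlation -0.021). This cannot decide a pairing, because parent widths were nearly unrelated between libraries, replicates of a group included. The labels give only replicate numbers, and these were not taken to pair the libraries. Limma called 0 regions under each alternative, the replicate block included.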
